A study of Rattus norvegicus with 28 samples.

Results

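Lyz2, C1qb, C1qc, Vsig4, Cybb, Cd68, Cd163, Csf1r, Cd14 and Ptprc are genes by which Kupffer cells, the resident macrophages of the liver, and other leukocytes are recognised. Their RNA was followed in cultures of primary rat hepatocytes. Their probes were found by name, through the gene name or accession that the array gives for each spot, and not by any measured value. The genes themselves were chosen with earlier results of these data known. The 10 genes were measured by 16 of the 41012 non-control probes. Of these 16 probes 15 passed the filter on dim probes, as did 37820 of all 41012, and each of the 10 genes kept at least 1 probe.

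The hepatocytes came from 2 adult female Sprague-Dawley rats, named A and B. They were held for 48 h in medium with 0.1 uM dexamethasone and then exposed for 24 h. The 7 test groups were untreated cells without solvent, 2,3,7,8-tetrachlorodibenzo-p-dioxin (TCDD) at 0.01 or 1 nM, 2,3,7,8-tetrachlorodibenzofuran (TCDF) at 0.1 or 10 nM, and 2,3,4,7,8-pentachlorodibenzofuran (PeCDF) at 0.02 or 2 nM, the compounds in 0.1% DMSO. Each test RNA, pooled from 3 dishes of 1 rat, was hybridised on a 2-colour array together with RNA of the same rat's cells given DMSO alone, once in each dye orientation. That gave 28 arrays, 4 a group. A value below is a log2 ratio of test RNA over DMSO RNA. The mean of the 2 orientations counted as 1 replicate, so n = 2 rats a group, and errors are standard errors of the fit. Because these are whole cultures, fewer cells of a type and less RNA per cell cannot be told apart.

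Kupffer cells line the sinusoids, where they clear microbes, complement-coated particles and aged red cells from the blood. A hepatocyte preparation from a digested liver can carry some of them along. All 3 compounds are ligands of the aryl hydrocarbon receptor (AHR), a transcription factor that hepatocytes and macrophages both contain and that binds DNA with a short GCGTG core. Macrophage genes are commonly driven by PU.1, a factor of the Ets family that binds purine-rich sites around a GAGGAA core.

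All 14 listed hepatocyte genes passed the filter on dim probes, and so did 34 of 42 further macrophage genes. In the AHR battery, the set of genes best known to respond to the receptor, 7 of 8 listed genes were tested. All 7 were called higher with TCDD 1 nM, against 6 at the upper dose of PeCDF and 5 at that of TCDF. The fitted values of all 7 were above 0 at each of these doses. Among them Cyp1a1 was saturated on 20 of 28 arrays and Cyp1a2 on 9. With TCDD 1 nM Cyp1a1 had a value in rat B alone. Between 72% and 100% of probes were well above background in the test channel of an array. The share of all genes called at an adjusted p under 0.05 (limma, Benjamini-Hochberg over all genes tested) was 10.6% for TCDD 1 nM, 2.37% for TCDF 10 nM and 4.45% for PeCDF 2 nM. Agilent's Feature Extraction software read the scans of untreated cells and TCDD on days 1 and 2. It read those of the furans on days 3 and 4. Days are numbered by the extraction date in the file headers, which is not a date of hybridisation or scanning. Each pair of days is called a reading session here. Compound and reading session therefore cannot be told apart in any comparison of TCDD with a furan.

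In DMSO RNA the main probe of each of the 10 genes was well above background on all 28 arrays, and none was saturated. Levels are given as normalized log2 signal in the DMSO channel, 14 arrays a rat. The complement gene C1qb had a median of 12.06 in rat A, with a range of 11.91 to 12.17, and of 12.55 in rat B, with a range of 12.36 to 12.67. Cd68, a glycoprotein of macrophage lysosomes, had 11.45 in rat A (11.32 to 11.57) and 11.92 in rat B (11.78 to 12.01). Vsig4, a complement receptor of resident macrophages, had 9.64 in rat A (9.54 to 9.71) and 10.24 in rat B (10.12 to 10.50). In these 3 genes the ranges of the rats did not overlap, rat B being 1.4-, 1.39- and 1.52-fold above rat A in their order here.

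Lyz2 (lysozyme, an enzyme that breaks bacterial walls) had a median of 9.07 in rat A and 9.42 in rat B, and C1qc had 9.46 and 10.01. Cd163, the scavenger receptor for haemoglobin bound to haptoglobin, had 7.10 and 7.33, Cd14 had 9.89 and 10.03, and Csf1r had 7.73 and 7.83. Their ranges overlapped between the rats. Cybb was at 7.73 in rat A and 7.70 in rat B, and Ptprc at 6.57 and 6.55, the only members with a higher median in rat A. Rat B was thus the higher for 8 of 10 genes, with a median difference of 0.30. Over all 34807 genes the median difference was 0.00, and 4.4% had ranges that did not overlap, 2.44% with rat B above and 1.96% with rat A above. Of the 34 further macrophage genes 27 were higher in rat B and 8 of them had ranges apart. The same order was seen in other lists. Rat B was higher for 11 of 14 stellate cell and fibroblast genes (4 apart). It was higher for 15 of 18 macrophage activation and cytokine genes (4 apart) and 10 of 11 cholangiocyte genes (1 apart). For lymphocyte, neutrophil and endothelial genes it was higher in 10 of 17, 8 of 12 and 5 of 12, with 0 apart. The arrays of a rat share one isolation of cells, so these differences were described and not tested.

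**Figure D1:**
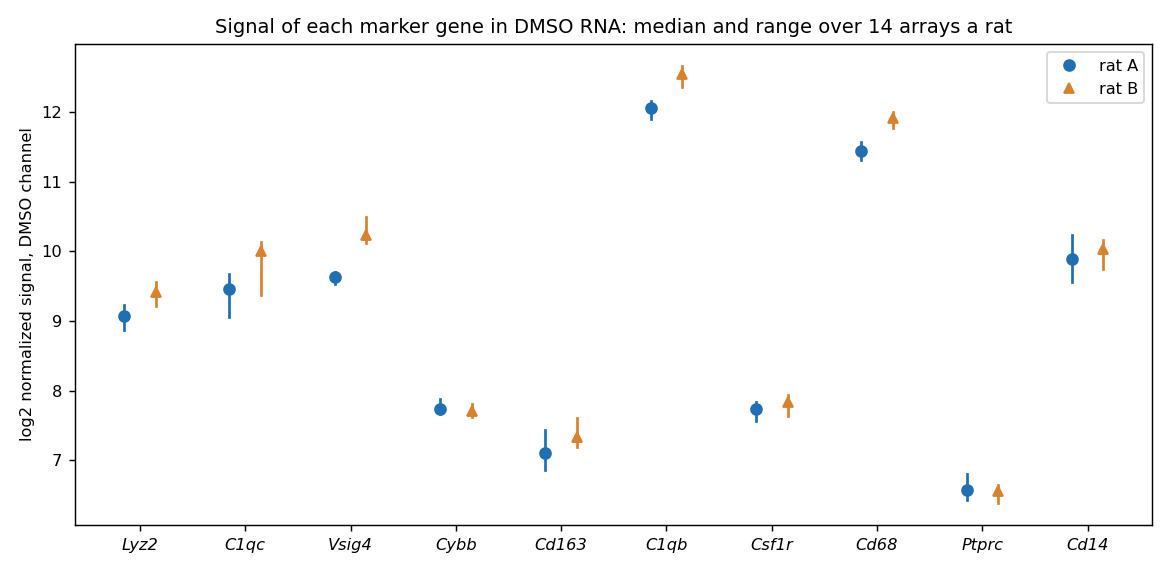
Normalized log2 signal of each marker gene in the DMSO channel (vertical axis), for rat A (circles) and rat B (triangles). Points are medians and bars the full range over 14 arrays, 13 for C1qc in rat A, and C1qb, Vsig4 and Cd68 are the genes whose bars do not overlap between the rats.

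With TCDD 1 nM, 5 of the 10 marker genes fell (Lyz2, C1qc, Vsig4, Cybb and Cd163) and 1 rose (Cd14). The decreases lay between 1.25-fold for Cd163 and 1.52-fold for Lyz2, and the increase of Cd14 was 1.56-fold. Among all 34805 genes tested 5.94% were called lower and 4.66% higher. The median over the 10 markers was -0.25, against 0.00 over all genes. C1qb, Csf1r, Cd68 and Ptprc were not called.

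Lyz2 was at -0.29 and -0.54 on the 2 arrays of rat A and at -0.73 and -0.85 on those of rat B. The signal of Lyz2 in the test channel, 8.55 to 8.70 over the 4 arrays, lay wholly below the 8.90 to 9.42 of the DMSO channel. The fitted log2 ratio was -0.60 ± 0.08 (n = 2 rats, adjusted p = 0.00113, limma). The rat has a close lysozyme paralogue, Lyc2, and whether its RNA adds to the Lyz2 signal was not tested.

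C1qc, a chain of the C1q molecule that starts the classical complement pathway, was at -0.16 and -0.25 in rat A and at -0.84 and -0.75 in rat B. All 4 arrays were below 0 and the rats did not overlap. The fit gave -0.50 ± 0.12 (n = 2, adjusted p = 0.0271, limma). C1qb, another chain of the same molecule, was at -0.22, -0.25, -0.14 and -0.14, with rat A the lower, and its -0.19 ± 0.09 was not called (adjusted p = 0.231, limma).

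Vsig4 was at -0.30 and -0.36 in rat A and at -0.64 and -0.63 in rat B, a fitted -0.48 ± 0.09 (n = 2, adjusted p = 0.00604, limma). Cybb, the catalytic subunit of the oxidase with which phagocytes make superoxide, was at -0.25 and -0.12 in rat A and at -0.49 and -0.51 in rat B. Its fit was -0.34 ± 0.09 (n = 2, adjusted p = 0.0363, limma). Vsig4 and Cybb thus shared with Lyz2 and C1qc an order in which both arrays of rat B lay below both of rat A. Cd163 had 0.04 and -0.25 in rat A and -0.46 and -0.60 in rat B, so 3 of 4 arrays were below 0, and the fit of -0.32 ± 0.09 had an adjusted p of 0.0478 (n = 2, limma).

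The genes that were not called lay closer to 0. Csf1r, the receptor on which macrophages depend for survival, was at -0.12 ± 0.05 (adjusted p = 0.217, limma, n = 2), with rat A at -0.04 and rat B at -0.19. Cd68 was at -0.11 ± 0.08, with rat A at -0.15 and rat B at -0.08. Ptprc (CD45, the phosphatase carried by all leukocytes) was at -0.03 ± 0.04, with rat A at 0.02 and rat B at -0.08. Its 95% interval ran from -0.12 to 0.06, and its dim signal includes the offset of 50 added in the background correction, which draws the ratios of dim probes towards 0. In 7 of the 10 genes rat B was below rat A with TCDD 1 nM, against 49.2% of all genes.

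Fitted from the groups of their own reading session alone, Lyz2, Vsig4 and Cd14 were called (adjusted p = 0.016, 0.0381 and 0.00439, limma, n = 2) and C1qc, Cybb and Cd163 were not (0.117, 0.0777 and 0.114). Without rat B in this group 1 call was left, that of Lyz2, at -0.41, and without rat A the 5 decreases were called and Cd14 was not. The count also fell to 2, Lyz2 and Vsig4, without background correction. The share of all genes called is not given for that setting or for the refits before it. These counts alone therefore show nothing particular to the markers. With each array centred on its median log ratio in place of loess none of the 10 was called and 0.615% of all genes were.

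**Figure D2:**
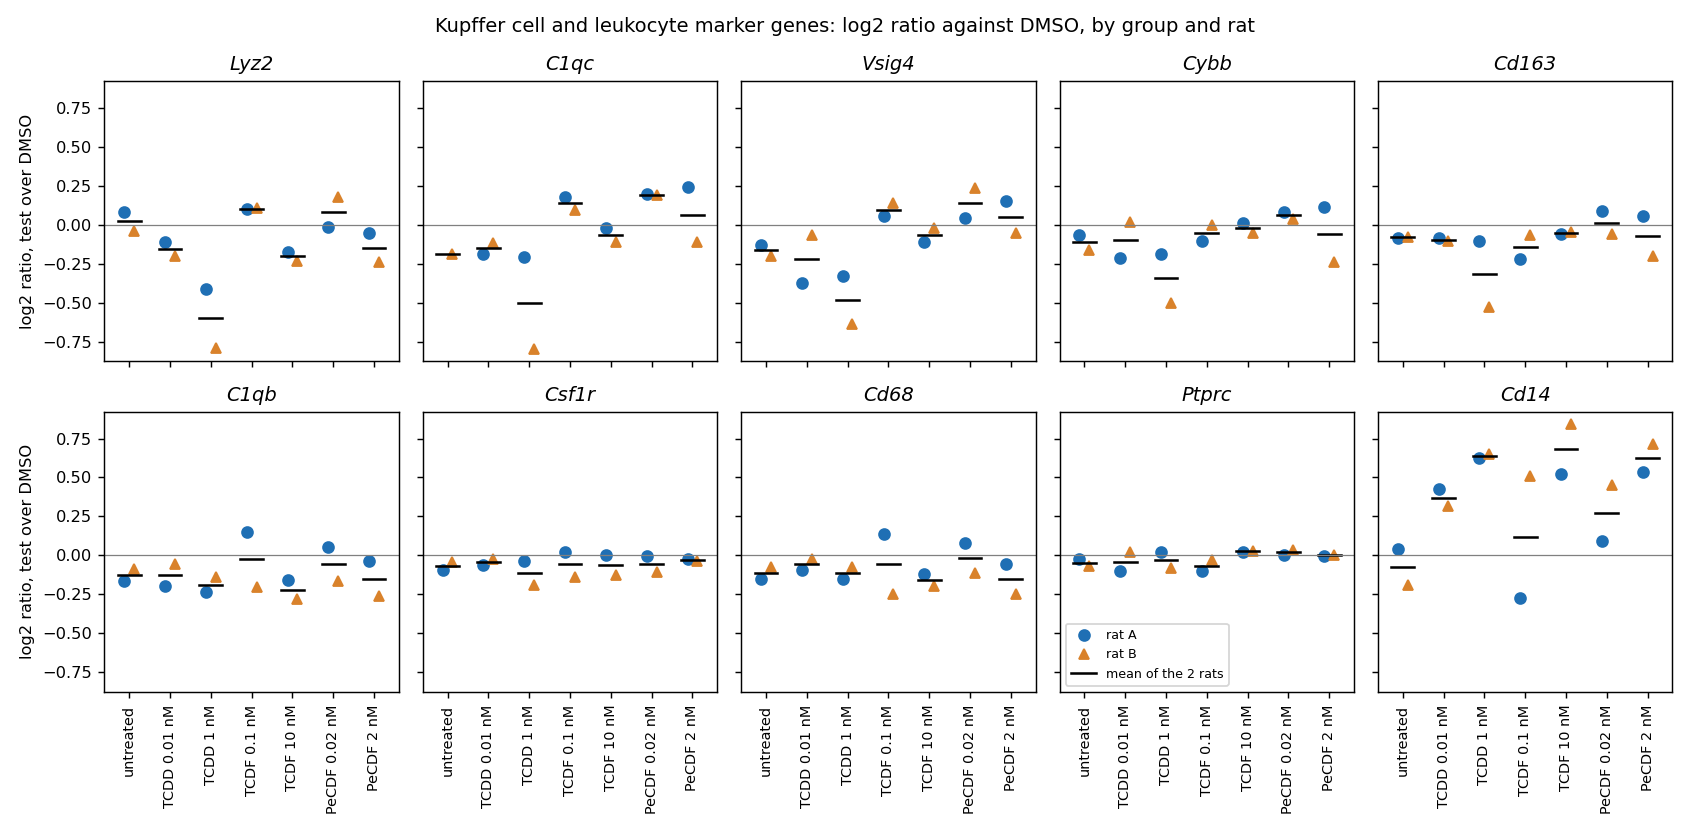
Log2 ratio of test RNA over DMSO RNA (vertical axis) for the 10 marker genes in the 7 groups (horizontal axis), rat A as circles, rat B as triangles and their mean as a bar; C1qc in untreated cells has rat B alone. The means of Lyz2, C1qc, Vsig4, Cybb and Cd163 are lowest with TCDD 1 nM, as are the values of rat B, while in rat A Vsig4 and Cybb are lower with TCDD 0.01 nM and Cd163 with TCDF 0.1 nM; Cd14 lies above 0 in both rats in 5 of the 6 compound groups.

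The regulatory sequence in front of 3 of the genes that fell is shown because these genes fell with the same treatment while differing in the PU.1 core. Promoters, 250 bases before to 50 after the start site, were taken from RefSeq on GRCr8 and matched 9 of 10 genes by symbol; C1qc had no entry. The Lyz2 promoter is chr7:54797962-54798261 (minus strand), that of Vsig4 chrX:65179659-65179958 (minus strand) and that of Cybb chrX:16065016-16065315 (minus strand). Capitals mark GAGGAA, or TTCCTC where it lies on the other strand. Neither GCGTG nor its complement occurs in these 3.
Lyz2: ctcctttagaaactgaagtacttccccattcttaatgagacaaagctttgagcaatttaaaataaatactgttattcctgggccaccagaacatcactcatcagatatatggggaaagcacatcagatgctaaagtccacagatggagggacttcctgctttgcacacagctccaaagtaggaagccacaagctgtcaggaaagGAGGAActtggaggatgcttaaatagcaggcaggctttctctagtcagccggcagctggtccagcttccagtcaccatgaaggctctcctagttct
Vsig4: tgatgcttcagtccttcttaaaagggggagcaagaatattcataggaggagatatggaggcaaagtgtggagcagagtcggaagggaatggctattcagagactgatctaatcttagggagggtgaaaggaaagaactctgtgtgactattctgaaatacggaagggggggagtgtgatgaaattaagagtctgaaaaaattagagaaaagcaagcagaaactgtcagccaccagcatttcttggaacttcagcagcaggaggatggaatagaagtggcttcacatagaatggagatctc
Cybb: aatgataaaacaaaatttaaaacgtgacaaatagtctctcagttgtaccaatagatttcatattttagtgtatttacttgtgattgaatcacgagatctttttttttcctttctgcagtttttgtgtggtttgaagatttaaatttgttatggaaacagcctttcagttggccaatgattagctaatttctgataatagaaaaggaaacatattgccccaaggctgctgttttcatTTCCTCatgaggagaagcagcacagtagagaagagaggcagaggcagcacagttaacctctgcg

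GAGGAA was present once in Lyz2, starting at position -46 from the start site, once in Cybb on the opposite strand, and not in Vsig4 or Cd163. On either strand it was present in 7 of the 9 promoters and in 27.6% of 33469 rat promoters of the same 300 bases. GCGTG, searched on both strands as well, was present in 2 of the 9, those of Csf1r and Ptprc, and in 29.7% of all. No match of one motif overlapped a match of the other. The promoter of Cd14 held 2 matches of GAGGAA and none of GCGTG. A match or its absence in this window is a description of the letters and says nothing about binding.

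Cd14, the surface protein that presents bacterial endotoxin to its receptor complex and that hepatocytes can also make, was the one marker that rose with all 3 compounds at the upper dose. With TCDD 1 nM the 4 arrays were at 0.67, 0.58, 0.68 and 0.62, the first pair from rat A. With TCDF 10 nM rat A was at 0.48 and 0.56 and rat B at 0.87 and 0.81. With PeCDF 2 nM rat A was at 0.58 and 0.49 and rat B at 0.75 and 0.68. The test channel of the TCDF 10 nM arrays, 10.51 to 10.87, did not overlap their DMSO channel, 9.93 to 10.06. The fitted log2 ratios were 0.64 ± 0.15 (adjusted p = 0.0242), 0.68 ± 0.15 (adjusted p = 0.0495) and 0.63 ± 0.15 (adjusted p = 0.0489), each with n = 2 rats in limma. As folds these were 1.56, 1.60 and 1.54.

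The calls with the furans lay close to the threshold. When every probe was tested on its own the adjusted p of Cd14 was 0.0531 with TCDF 10 nM and 0.0513 with PeCDF 2 nM (limma, n = 2), and with either rat left out of its group neither was called. In a fit of the furan groups alone, which share a reading session, it was 0.144 and 0.126.

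At the lower doses Cd14 was at 0.42 in rat A and 0.32 in rat B with TCDD 0.01 nM, where the fit of 0.37 ± 0.15 had an adjusted p of 0.418 (limma, n = 2). With PeCDF 0.02 nM the rats were at 0.09 and 0.45. With TCDF 0.1 nM they lay on either side of 0, at -0.27 in rat A and 0.51 in rat B, and in untreated cells at 0.04 and -0.19. Within each rat the 2 dye orientations of Cd14 lay close together in these groups, with TCDF 0.1 nM at -0.21 and -0.33 in rat A and at 0.50 and 0.51 in rat B.

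With TCDF 10 nM, Cd14 was the 1 gene called among the 10, where 2.37% of all genes were called, 1.11% higher and 1.26% lower. Lyz2 was at -0.17 in rat A and -0.23 in rat B and C1qb at -0.16 and -0.28. Their fits, -0.20 ± 0.08 and -0.22 ± 0.09 (n = 2), had adjusted p-values of 0.317 and 0.306 in limma. Cd68 was at -0.12 and -0.20, Vsig4 at -0.11 and -0.02, C1qc at -0.02 and -0.11, Cybb at 0.01 and -0.06 and Cd163 at -0.06 and -0.05. The median over the 10 genes was -0.06, and 8 were below 0. These 8, the 10 without Cd14 and Ptprc, all turned above 0, to between 0.05 and 0.35, when arrays were centred on their median in place of loess.

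PeCDF 2 nM also left Cd14 as the 1 called gene, against 4.45% of all genes, 1.74% higher and 2.71% lower. Lyz2 was at -0.05 in rat A and -0.24 in rat B, C1qb at -0.03 and -0.26 and Cd68 at -0.06 and -0.25. C1qc, at 0.24 and -0.11, Vsig4, at 0.15 and -0.05, Cybb, at 0.12 and -0.24, and Cd163, at 0.05 and -0.20, had the rats on opposite sides of 0. Csf1r and Ptprc were within 0.04 of 0 in both rats. In 8 of 10 genes rat B lay below rat A, against 49.7% of all genes.

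**Figure D3:**
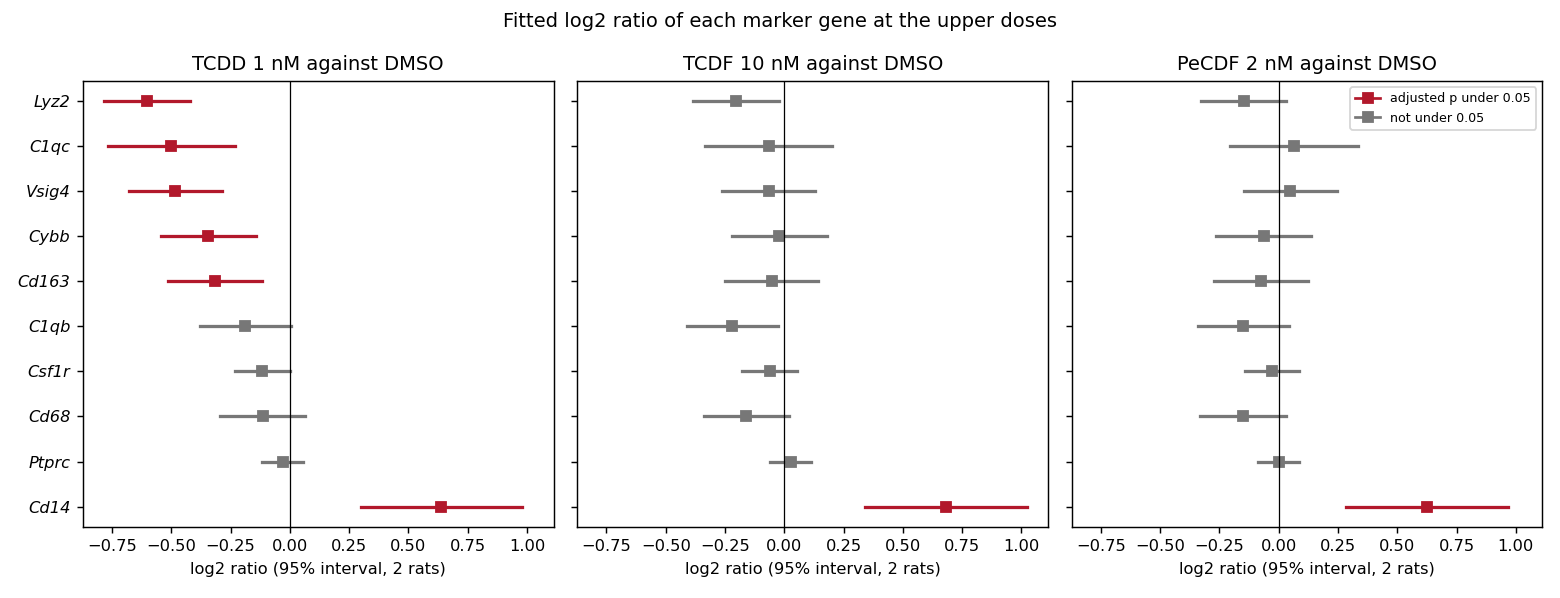
Fitted log2 ratio of each marker gene (squares) with its 95% interval (bars) for TCDD 1 nM, TCDF 10 nM and PeCDF 2 nM, n = 2 rats each; red marks an adjusted p under 0.05. In the TCDD panel 5 intervals lie below 0 in red, and Cd14 is red in all 3 panels.

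In untreated cells, which received no solvent, 0 of the 10 genes were called by limma, against 0.0431% of all genes. Of the 10, 0 had an unadjusted p under 0.05. With 9 of 10 genes below 0, the median was -0.10. Vsig4 was at -0.13 in rat A and -0.20 in rat B, and C1qb at -0.17 and -0.09. C1qc was measured there in rat B alone, at -0.19, because a spot of rat A was marked as an outlier.

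TCDD 0.01 nM also gave 0 calls by limma (0.451% of all genes), 2 genes having an unadjusted p under 0.05, Vsig4 and Cd14. Vsig4 was at -0.38 in rat A and -0.06 in rat B. Lyz2 was at -0.11 and -0.20 and C1qc at -0.19 and -0.11, and 9 of 10 genes were below 0. With TCDF 0.1 nM (0.00287% of all genes) and PeCDF 0.02 nM (0% of all genes) 0 of 10 were called by limma and 0 had an unadjusted p under 0.05. Lyz2 was at 0.10 in both rats with TCDF 0.1 nM and at -0.01 and 0.18 with PeCDF 0.02 nM.

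The tested differences between doses and between compounds gave no call for any member. From TCDD 0.01 to 1 nM the change of Lyz2 was -0.45 ± 0.11 (adjusted p = 0.066), with a 95% interval of -0.70 to -0.19, and that of C1qc was -0.35 ± 0.17 (adjusted p = 0.337; limma, n = 2 rats a group). Called there were 0 of 10 by limma, against 3.74% of all genes, and 1 had an unadjusted p under 0.05. From TCDF 0.1 to 10 nM 0 were called (0.0891% of all genes) and 2 had an unadjusted p under 0.05. From PeCDF 0.02 to 2 nM 0 were called (0.0834%) and 0 had an unadjusted p under 0.05 (limma). These shares are of called genes, and no share of all genes at an unadjusted p under 0.05 is given here or below. Cd14 differed by 0.56 ± 0.22 over the TCDF doses and by 0.35 ± 0.22 over the PeCDF doses.

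TCDD is a dibenzodioxin and the others are dibenzofurans, PeCDF carrying more chlorine than TCDF. Their upper doses differ as well, and therefore the following differences compare groups and not compounds at a matched dose. TCDD 1 nM minus PeCDF 2 nM was -0.53 ± 0.12 for Vsig4 (adjusted p = 0.0829), -0.45 ± 0.11 for Lyz2 (adjusted p = 0.102) and -0.56 ± 0.17 for C1qc (adjusted p = 0.157; limma, n = 2 rats a group). Of the 10 genes 0 were called, against 0.857% of all genes, and 3 had an unadjusted p under 0.05. TCDD 1 nM minus TCDF 10 nM was -0.42 ± 0.12 for Vsig4, -0.40 ± 0.11 for Lyz2 and -0.44 ± 0.17 for C1qc. Again 0 were called (0.0632% of all genes), and 4 had an unadjusted p under 0.05 (limma). TCDF 10 nM minus PeCDF 2 nM had 0 called (0% of all genes) and 0 at an unadjusted p under 0.05. The largest difference there among the 10 was -0.13 ± 0.17, in C1qc. For Cd14 the difference between TCDD 1 nM and TCDF 10 nM was -0.04, with an interval of -0.52 to 0.44, wide enough to hold a change of either sign. The rats differed at TCDD 1 nM itself, where against DMSO Lyz2 was at -0.41 in rat A and -0.79 in rat B. Vsig4 was at -0.33 and -0.63 there, and C1qc at -0.21 and -0.80. All comparisons with DMSO share DMSO RNA of the same 2 rats.

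Where a gene had a second probe the size of the change was not the same. The dimmer C1qc probe was at -0.25 ± 0.09 with TCDD 1 nM (adjusted p = 0.0987 over all probes, limma, n = 2). With TCDD 0.01 nM the same probe was lower, at -0.37 ± 0.09 (unadjusted p = 0.00146, adjusted p = 0.135, limma, n = 2). Its step between the doses, 0.12 ± 0.12, was thus opposite in sign to that of the brighter probe. The dye orientations lay apart with TCDD 0.01 nM, at -0.59 and -0.16 in rat A and at -0.59 and -0.14 in rat B. The lower values were those with test RNA in Alexa647. Averaging the pair keeps this gap out of the error. The dimmer Cd163 probe was at -0.04 ± 0.04. The dimmer Cd14 probe was at 0.19 ± 0.16 with TCDD 1 nM, and at 0.53 ± 0.16 and 0.57 ± 0.16 with TCDF 10 nM and PeCDF 2 nM (adjusted p = 0.560, 0.160 and 0.0866). None of these second probes was called. The second probe of Csf1r was at 0.03 with TCDD 1 nM. The second probes of C1qb and Ptprc were dim, well above background in the DMSO channel on 12 and 16 of 28 arrays, and the C1qb one was left out by the filter.

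Among the further 34 macrophage genes, 3 fell and 1 rose with TCDD 1 nM, against 5.94% and 4.66% of all genes, and the median was -0.05. Mrc1, the mannose receptor, was at -0.19 in rat A and -0.67 in rat B, a fitted -0.43 ± 0.10 (adjusted p = 0.0266, limma, n = 2). Coro1a, an actin-binding protein of leukocytes, fell by 0.23 and Slc11a1, a metal transporter of phagosomes, by 0.12 on the log2 scale, with adjusted p-values of 0.0464 and 0.0475. With the rat as a block neither Coro1a nor Slc11a1 was called (adjusted p = 0.0536 and 0.0541, limma). Mrc1 was not called in the fit of its own reading session (adjusted p = 0.112, limma), and without rat B none of these 3 was called. Over 14 alternative settings Mrc1 was called in 11, Coro1a in 8 and Slc11a1 in 6. Lyn, a Src-family kinase, rose with all 3 compounds, to 1.34-fold with TCDD 1 nM, 1.30-fold with PeCDF 2 nM and 1.18-fold with TCDF 10 nM. It was the 1 gene of the 34 called with either furan, but with TCDF 10 nM not when either rat was left out.

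Most of the 34 further macrophage genes were not called with TCDD 1 nM, and the genes named next are examples. Of the 34, 28 were below 0 and 6 above with TCDD 1 nM. In the other groups of its reading session the numbers were 27 and 7 with TCDD 0.01 nM and 24 and 10 in untreated cells. Marco was at -0.16 (adjusted p = 0.0598) and Adgre1 at -0.14 (adjusted p = 0.0816), both rats below 0 in each (limma, n = 2). C1qa, the third chain of C1q, was at -0.08, with rat A at -0.22 and rat B at 0.06. Summed over the 10 markers, the log2 signal with TCDD 1 nM was 13.22 to 13.68 in the test channel and 13.31 to 13.82 in the DMSO channel. Summed over the 34 further genes it was 13.75 to 14.18 and 13.87 to 14.24. The sums overlapped between the channels, although on each of the 4 arrays the test sum was the lower, by a log2 ratio of -0.17 to -0.10 for the markers and of -0.13 to -0.01 for the further genes. In untreated cells the same ratio for the 10 markers was -0.27 to -0.09. The sums are carried by the brightest genes, among the 10 by C1qb and Cd68, which were not called.

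Some markers of other cells were called with TCDD 1 nM, to be read against the 5.94% of all genes called lower and 4.66% called higher. Of 14 stellate cell and fibroblast genes 3 fell (Vim, Lox and Tagln) and 0 rose, 8 being below 0 and 6 above at a median of -0.03, with a summed log2 signal of 11.88 to 12.15 in the test channel against 12.11 to 12.37 in the DMSO channel. Vim was at -0.75 and Lox at -0.91. Without rat B at TCDD 1 nM neither Lox nor Tagln was called. With TCDF 10 nM Vim fell, to -0.47, where 1.26% of all genes were called lower. With PeCDF 2 nM Col3a1 and Dcn rose, to 0.17 and 0.20, and Col1a1 fell, to -0.15. There 1.74% of all genes were called higher and 2.71% lower. In the fit of the furan groups alone Col3a1 was called, and Vim, Dcn and Col1a1 were not. Of 11 cholangiocyte genes 2 fell with TCDD 1 nM (Anxa13 and Prom1, the latter not called when either rat was left out) and 0 rose. The median of the 11 was -0.06, with 7 below 0 and 4 above, and the sums were 11.28 to 11.38 against 11.55 to 11.79. These sums, like those of the stellate cell list, are carried by the brightest genes and do not stand for the whole list. Anxa13 was at -1.36, and it fell also with TCDF 10 nM and PeCDF 2 nM, to -0.94 and -0.77. Of 12 endothelial genes 0 were called by limma and 4 had an unadjusted p under 0.05, and of 12 neutrophil and mast cell genes 0 and 1. The shares above are of called genes and do not apply to counts at an unadjusted p. Of the 14 hepatocyte genes 3 fell (Arg1, Cps1 and Tdo2) and 1 rose (Apob). Alb, Apoa1, Fgb, Tf and Ttr were saturated on all 28 arrays, Serpina1 on 26 and Arg1 on 23, so neither a summed signal nor a comparison of the rats was drawn from this list. The part of these shifts in the decreases of the macrophage markers was not tested.

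Of 17 lymphocyte and natural killer cell genes, Klrb1a rose and Zap70 fell with each of the 3 upper doses, and the other genes of the list were not called. The shares of all genes called higher and lower were 4.66% and 5.94% with TCDD 1 nM, 1.11% and 1.26% with TCDF 10 nM and 1.74% and 2.71% with PeCDF 2 nM. Klrb1a, a lectin-like receptor of natural killer cells, was at 0.52 with TCDD 1 nM, 0.34 with TCDF 10 nM and 0.46 with PeCDF 2 nM. Zap70, a kinase of T cell receptor signalling, was at -1.20, -0.80 and -0.75 in the same order. Of 18 macrophage activation and cytokine genes 3 rose and 0 fell with TCDD 1 nM, against the same 4.66% and 5.94% of all genes, at a median of 0.01. These were Cxcl10, a chemokine induced by interferon, at 0.50, Il1rn, the interleukin-1 receptor antagonist, at 0.33, and Irf5, a transcription factor of inflammatory macrophages, at 0.18. Irf5 was not called with the rat as a block (adjusted p = 0.059, limma) and was called in 6 of 14 alternative settings, and Il1rn was at 0.08 and not called when its probes were averaged. With PeCDF 2 nM Csf1, the ligand of the Csf1r protein, fell by 0.32 on the log2 scale, and with TCDF 10 nM 0 of 18 were called by limma, 1 having an unadjusted p under 0.05.

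Across the 14 ratios, 7 groups in 2 rats that share DMSO RNA and reading sessions, the members fell into unlike patterns. Over the 10 pairs among Lyz2, C1qc, Vsig4, Cybb and Cd163, Pearson's r ran from 0.657 (Vsig4 and Cd163) to 0.919 (C1qc and Vsig4). These genes were grouped by their fall with TCDD 1 nM, and its ratios are part of these values. Without them 5 of the 10 pairs lay at 0.0656 to 0.471, and the highest, C1qc and Vsig4, was at 0.834. C1qb ran with Cd68 at 0.938, and at 0.945 without TCDD 1 nM. C1qb and C1qc, chains of one protein, had an r of 0.38. Cd14 ran opposite to C1qb, at -0.74, and to Cd68, at -0.67. These correlations describe the same ratios that were tested above and were not tested themselves.

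**Figure D4:**
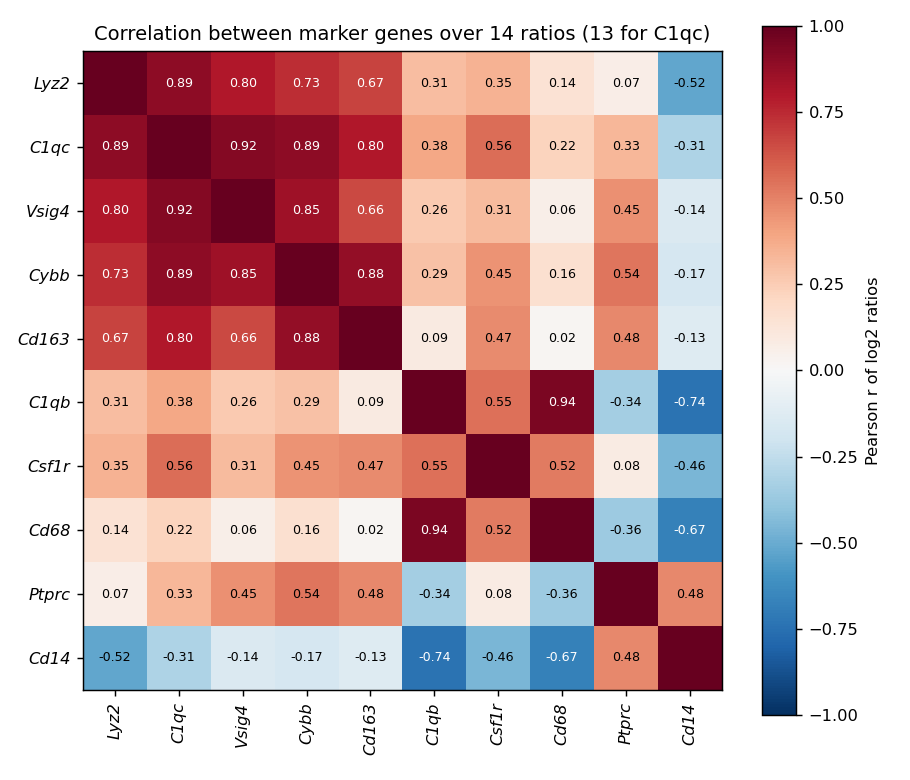
Pearson correlation between the log2 ratios of each pair of marker genes over 14 ratios (7 groups, 2 rats), 13 for pairs with C1qc. Lyz2, C1qc, Vsig4, Cybb and Cd163, grouped by their fall with TCDD 1 nM, are red with each other, but 5 of their 10 pairs lie at 0.0656 to 0.471 without those ratios. C1qb and Cd68 are a pair at 0.938, and Cd14 is blue with all but Ptprc.

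The 10 markers and all genes of the cell type lists, other macrophage genes among them, were left out of the following ranking. It therefore does not show whether a listed gene was more alike. Among the 14722 remaining genes with a symbol and all 14 ratios, those most like the mean of the 10 markers were Hes1 (r = 0.955), Armcx3 (0.952), Zfp707 (0.948), Casp12 (0.947) and Trim13 (0.946). Those most like Lyz2 were Rbks (0.959), Tspo (0.958) and Gskip (0.953). With TCDD 1 nM Gskip was at -0.61 in rat A and -0.70 in rat B, and Tspo at -0.27 and -0.41.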

How the data were processed

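RNA of hepatocytes was measured on 28 Agilent 2-colour arrays. The authors' scanner files give the intensity of each spot and of the background around it, per the file headers (Alexa647 read as red, Alexa555 as green), and a log10 ratio of red over green after background subtraction and dye normalization. The deposited series table gives that log10 ratio turned to test over DMSO RNA (largest difference from the turned scanner value 4.871e-06, column medians -0.00302 to 0.0051). The version of Agilent's Feature Extraction is A.7.5.1 per the file headers and 9.1 per the submitters' processing notes. The genome build behind the probes is not given in the sources used here.

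All later values are log2 ratios computed from the deposited intensities. Intensities were corrected by normexp (offset 50) and normalized by loess with 2256 control spots at weight 0 (R 4.3.3, limma 3.58.1). Spots marked as outliers were dropped (1067, 0.0921%), which left 990 ratios (0.172%) missing. A probe entered if its test signal exceeded background on the 4 arrays of any group, or its DMSO signal did so on 14 or more of 28, and the brightest probe stood for a gene. Genes were named through RefSeq symbols, matched through the accession for 8031 probes, the gene identifier for 8676, the symbol for 1392 and a synonym for 430; the remaining 22483 of 41012 kept the array's name. Single-channel levels came from Aquantile normalization. The dye-swap pair of a rat was averaged, and limma fitted the means of 7 groups to 14 ratios (7 residual and 3.21 prior degrees of freedom), with Benjamini-Hochberg adjustment over all genes and calls at 0.05. The number of arrays and rats limits the precision.

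The rats recur in every group, so the design pairs the groups by rat: the deviations of rat A from the group mean correlated between groups at a median of 0.123 (-0.393 to 0.563 over 21 pairs of groups). Members, lists and the rule for named genes (all 10 members, called genes of the lists, and the most similar genes) were chosen with earlier results of these data known. Alternatives changed the background correction, normalization, filter, probe choice, marked spots, blocks, sessions and rats. Tests of every probe on its own and with 1 rat left out of 1 group were added after seeing the data.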

Additional observations from a re-analysis of the deposited data

Results flagged for a closer look

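At the lower doses, in 6 comparisons both rats lay on one side of 0 with one compound and on the other side with another. All 10 markers were searched in each pair of lower-dose groups, and only the pairs that met this rule are listed. The share of all genes that meets it is not given, and these differences were not tested. Lyz2 was at -0.16 with TCDD 0.01 nM (rats at -0.11 and -0.20) and at 0.10 with TCDF 0.1 nM (0.10 in both). C1qc was at -0.15 with TCDD 0.01 nM (-0.19 and -0.11), at 0.14 with TCDF 0.1 nM (0.18 and 0.10) and at 0.19 with PeCDF 0.02 nM (0.20 and 0.19). Vsig4 was at -0.22 with TCDD 0.01 nM (-0.38 and -0.06), at 0.10 with TCDF 0.1 nM (0.06 and 0.14) and at 0.14 with PeCDF 0.02 nM (0.04 and 0.24). Ptprc was at -0.065 with TCDF 0.1 nM (-0.10 and -0.031) and at 0.019 with PeCDF 0.02 nM (0.0030 and 0.036). TCDD and the furans were also read in different sessions, which cannot be told apart from the compound.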

How the results depend on the processing

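Of the 10 markers, 6 were called with TCDD 1 nM, 1 with TCDF 10 nM and 1 with PeCDF 2 nM. With TCDD 1 nM the count was 2 without background correction, 3 from the groups of 1 reading session alone and 0 with median centring, and it was 4 to 8 under the other settings with both rats. With TCDF 10 nM and with PeCDF 2 nM it was 0 without background correction, with median centring, with Agilent's own log ratio, with the deposited series values, without a filter, with marked spots kept, with the mean over probes, within 1 session and for every probe on its own. The cause was not tested. The share of all genes called also changed with the setting and is not given beside the counts here and below. The counts alone therefore show nothing particular to the markers. The animal as a replicate block gave 6, 1 and 1 and changed no call of a member; beyond the members it ended those of Coro1a, Slc11a1 and Irf5 with TCDD 1 nM.

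In array-level fits, in which the arrays of a rat count as separate values, a dye term with the animal as a random block gave 2 with TCDF 10 nM, 1 for TCDD 1 minus 0.01 nM, 4 for TCDD 1 nM minus TCDF 10 nM and 4 for TCDD 1 nM minus PeCDF 2 nM. The reading day as a random block gave 4 for TCDD 1 minus 0.01 nM, 1 for TCDF 10 minus 0.1 nM, 2 for TCDD 1 nM minus TCDF 10 nM and 3 for TCDD 1 nM minus PeCDF 2 nM. Each day held arrays of a single dye orientation, so within a session day and dye cannot be told apart. That fit held no term for the rat.

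With 1 rat left out of 1 group the count ran from 1 to 5 for TCDD 1 nM, 0 to 0 for TCDF 10 nM and for PeCDF 2 nM, 0 to 3 for TCDD 1 minus 0.01 nM, and 0 to 4 for TCDD 1 nM minus either furan; the lone rat is assumed to vary like the other groups. Leaving a rat out of every group left no residual degrees of freedom, so it gave values and no test.

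No called member changed sign. Among members not called, median centring turned 8 with TCDF 10 nM above 0 (Lyz2 0.17, C1qb 0.30, C1qc 0.35, Vsig4 0.35, Cd163 0.045, Csf1r 0.16, Cd68 0.33, Cybb 0.21) and 2 with PeCDF 2 nM (Csf1r 0.0060, Ptprc 0.011). Ptprc turned to 0.0017 without background correction (PeCDF 2 nM) and to -0.0077 with the mean over probes (TCDF 10 nM). Leaving out a rat turned Ptprc with TCDD 1 nM (-0.084 to 0.023), Csf1r (-0.13 to 0.0054) and Cybb (-0.056 to 0.014) with TCDF 10 nM, and C1qc (-0.11 to 0.24), Vsig4 (-0.054 to 0.15), Cd163 (-0.20 to 0.053), Cybb (-0.24 to 0.12) and Ptprc (-0.0060 to 0.0048) with PeCDF 2 nM.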
